A study of Mus musculus with 4 samples.

Results

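The airway epithelium of the lung was followed in spatial transcriptomes from 2 BALB/c mice that had carried 4T1 tumours. Each mouse, 8 weeks old at the start, had received 100000 cells of the 4T1 line, a BALB/c-derived breast cancer line whose tumours seed the lung, in the mammary fat pad, and tissue was taken 28 days later. One section of the primary tumour and one of the lung were profiled per mouse, 4 sections in all, and every lung analysed here came from a tumour-bearing animal, with no tumour-free lung beside it. Airway spots were selected on the share of a spot's UMIs, the counted RNA-derived molecules, that came from Scgb3a2, Cyp2f2, Foxj1, Ccdc153 and Tppp3. Scgb1a1, the sixth gene of the rule, was not analysed here. Among spots with more than 200 genes, the top 5% of this share in each lung section were taken, which gave 85 of 1697 spots in Mouse_627 and 139 of 2780 in Mouse_628. These 224 spots came from 4477 lung spots and from 9339 spots over the 4 sections. They were compared with the lower 80% of the same section, 1358 and 2224 spots, by summing the UMIs of each class, so that n = 2 mice throughout.

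The conducting airways are lined mainly by club cells and ciliated cells. Club cells secrete secretoglobins and other proteins into the lining fluid and hold much of the lung's cytochrome P450, while ciliated cells carry bundles of motile cilia, whose dynein arms, radial spokes and central apparatus move mucus towards the throat. Basal cells, goblet cells and clusters of neuroendocrine cells are rarer in the mouse lung and lie mostly in the larger airways. A sleeve of smooth muscle, connective tissue, nerves and vessels surrounds the epithelium, and a spot can hold cells of several of these layers. In sums of this kind more cells of a type and more RNA per cell cannot be told apart.

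The airway spots held 615267 UMIs in Mouse_627 and 999910 in Mouse_628, and the lower 80% held 9020666 and 26158685. The median airway spot had 6964 and 6688 UMIs, against 6665 and 9901 in the lower 80%, so depth per spot was similar between the classes in one mouse and lower in airway spots in the other. One airway spot of Mouse_627 had 243 UMIs. The lower 80% differed between the mice in tumour content: the 12 genes of a 4T1 list summed to 486 CPM (UMIs of a gene or list scaled to a common total of UMIs) in Mouse_627 and 1950 CPM in Mouse_628, against 270 and 665 CPM in airway spots. Counts against lower 80% spots poor in these 4T1 markers are given below for a part of the lists.

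**Figure D1:**
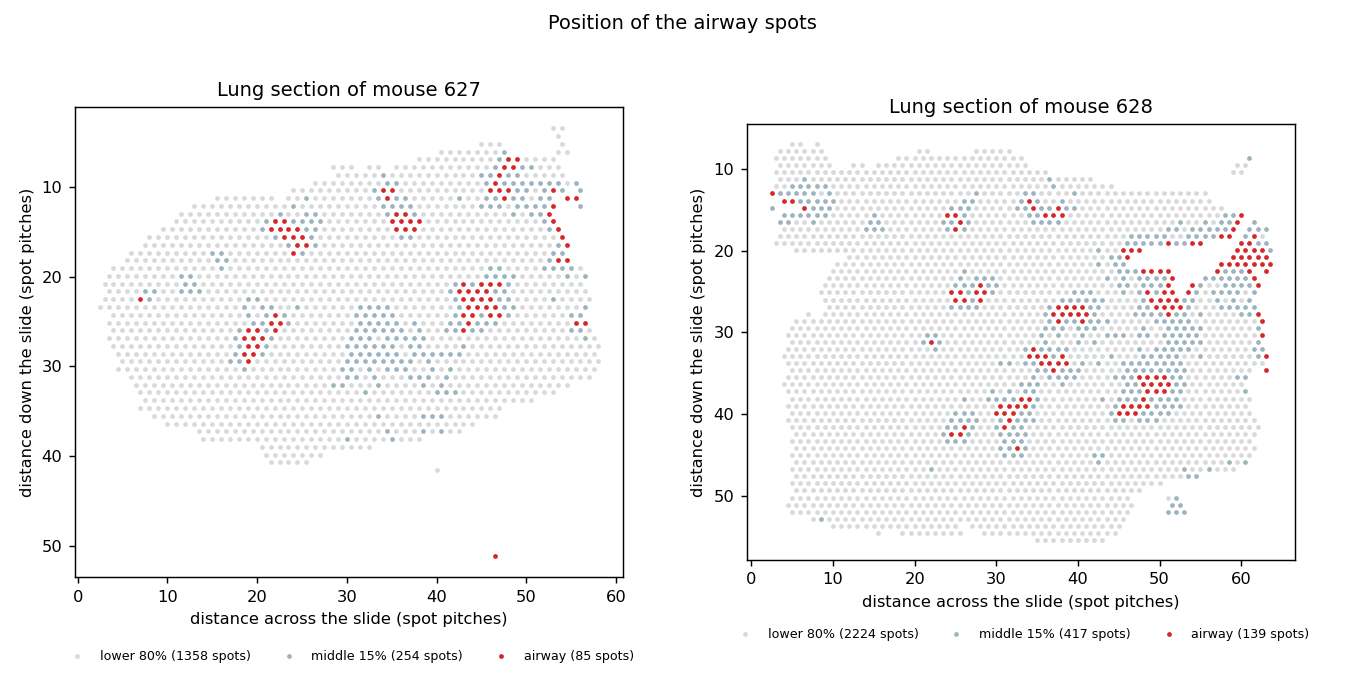
Position of the airway spots (red), the next 15% of spots (blue) and the lower 80% (grey) in the lung section of each mouse, with both axes in spot pitches. The 85 and 139 airway spots lie mostly in compact groups, and 1 airway spot of Mouse_627 lies away from the tissue.

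The airway spots lay together, although position took no part in the choice. In Mouse_627 they formed 14 patches of touching spots, the largest of 22 spots, and 82 of 85 touched another airway spot. In Mouse_628 they formed 26 patches, the largest of 24 spots, and 131 of 139 touched another. Of the neighbours of airway spots, 52.1% and 51.3% were themselves airway spots, against 5.01% and 5.00% of all spots. Patches of 4 or more spots numbered 7 in Mouse_627 and 12 in Mouse_628.

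The genes that chose the spots are described without a test. Cyp2f2, a club cell cytochrome P450, stood at 8582 and 8178 CPM in airway spots of Mouse_627 and Mouse_628 and at 341 and 78.2 CPM in the lower 80%. Scgb3a2, a secretoglobin, stood at 1378 and 1947 CPM against 43.9 and 9.98 CPM. Among the ciliated cell genes, Foxj1, the regulator of motile ciliogenesis, stood at 167 and 190 CPM against 5.43 and 1.38 CPM. Ccdc153 stood at 491 and 485 CPM and Tppp3 at 1476 and 1242 CPM. The last airway spot of Mouse_627 had a share of 0.786% (80 of 10177 UMIs) and the first spot outside 0.777%, and in Mouse_628 these were 0.649% and 0.646%, so the limit cut a continuous range. Cyp2f2 had UMIs in 100% of airway spots of both mice, and Foxj1 in 58.8% and 67.6%.

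Genes outside the score were tested with edgeR's quasi-likelihood test, with the mouse as a block. Of 12988 genes, 1414 (10.9%) were higher and 389 (3.0%) lower in airway spots at an adjusted p under 0.05, and the median log2 fold change over all genes was -0.11. Since the spots were chosen on genes of secretory and ciliated cells, other genes made by the same cells rise with that choice, and the counts below describe what lay with the score genes. Genes such as Dnah5 and Sox2 were too low in the lower 80% to pass the count filter without the airway sums. They entered the fit through the spots where they are high, which in part sets the counts of calls below. Csf3 entered in the same way through the lower 80%. Such genes are given in CPM without a fold or a p. Without the mouse block, 424 genes (3.26%) were called higher and 0 (0%) lower, with 1470 genes at an unadjusted p under 0.05 in either direction, and DESeq2 with the block called 1064 higher and 114 lower. Against lower 80% spots poor in 4T1 markers, 2052 of 12203 genes (16.8%) were higher and 1352 (11.1%) lower. With 4 sums the fit had 1 residual degree of freedom, so the spread of a gene was largely borrowed from other genes of similar level. Of the genes described below that were named by the rule given with the processing, the calls of Spag16, Foxn4, Cdc20b, Sox2, Ehf, Hes1, Kcne3, Calca, Hp, Cp, Cnn1, Myh11, Gli1, Cdh19, Cfd, Ryr2, Atp6v1c2, Fabp4, Mzb1, Apln, Birc5, Csf3 and Plau and of the 5 largest falls were lost without the mouse block, with Cnn1 at an adjusted p of 0.0541. For genes named outside that rule, among them Cbr2, Aldh1a1, Pigr, Cyp4b1, Rfx3 and Retnla, the call without the block is not given here.

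**Figure D2:**
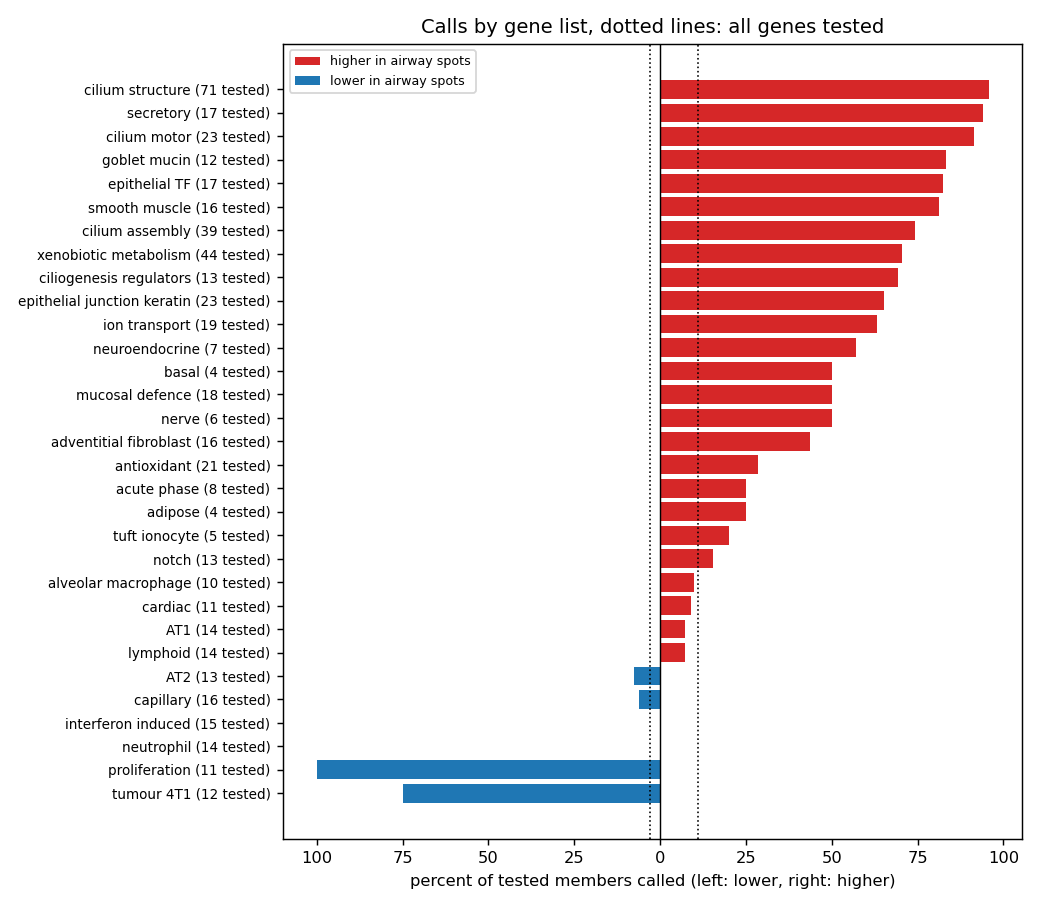
Share of the tested members of each gene list called higher (right, red) or lower (left, blue) in airway spots, in percent, for the lists with 4 or more tested members, with dotted lines at the shares over all genes tested, 10.9% and 3.0%. The axonemal, secretory, dynein and goblet cell lists reach furthest to the right, and the proliferation and 4T1 lists are the ones that reach far to the left.

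The secretory genes rose almost as one list. Of 17 tested members besides the score genes, 16 were higher in airway spots and 0 lower, with a median log2 fold change of 4.10, and 8 were called without the mouse block. Bpifa1 (ENSMUSG00000027483, chr2:154142880-154149219, plus strand, GRCm38), a secreted lipid-binding defence protein of the upper airways, measured 569 CPM in airway spots of Mouse_627 (95% Poisson interval 511 to 632) and 3284 CPM in those of Mouse_628 (3173 to 3399). In the lower 80% it measured 16.7 and 11.4 CPM (log2 fold change 6.54 ± 0.52 SE, adjusted p = 2.54e-33). The airway level was thus higher than the lower 80% in both mice, and the 2 mice differed from each other by more than the counting intervals, which cover counting error only. Bpifb1, of the same family, measured 410 and 786 CPM against 14.1 and 2.94 CPM (6.32 ± 0.40, adjusted p = 1.98e-51). Lypd2 measured 315 and 366 CPM against 11.3 and 2.18 CPM (5.94 ± 0.37, adjusted p = 1.94e-55). Cbr2 and Aldh1a1 were less restricted, with higher levels in the lower 80%. Cbr2, a carbonyl reductase of club cells, measured 3737 and 2477 CPM against 360 and 76.3 CPM (4.07 ± 0.52, adjusted p = 2.18e-13). Aldh1a1, a retinal-oxidising aldehyde dehydrogenase, measured 1477 and 1484 CPM against 179 and 70.3 CPM (3.60 ± 0.42). Il13ra1 was the member not called, with 117 and 131 CPM against 164 and 112 CPM. Upk3a and Kcnj16 were too low to test.

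Antimicrobial genes were split. Of 18 tested members of the mucosal defence list, which shares Bpifa1 and Bpifb1 with the secretory list, 9 were higher and 0 lower, with a median of 2.35 (6 were called without the mouse block). Reg3g (chr6:78466269-78468872, minus strand, GRCm38), a lectin that kills Gram-positive bacteria, measured 1596 CPM in Mouse_627 and 5118 CPM in Mouse_628 against 60.1 and 19.6 CPM (6.26 ± 0.60, adjusted p = 1.69e-23). Pigr, the receptor that carries IgA across the epithelium, measured 115 and 256 CPM against 11.2 and 3.33 CPM (4.75 ± 0.36, adjusted p = 6.9e-38). Tff2, a trefoil peptide, measured 22.8 and 51.0 CPM against 0.776 and 0.229 CPM. Against spots poor in 4T1 markers 10 of 17 were higher and 3 lower. Retnla, also of this list, is described at the end. Lactoferrin, Ltf, which neutrophils also make, was not called and measured 1432 and 1826 CPM in airway spots and 2109 and 463 CPM in the lower 80%, lower in one mouse and higher in the other. Of the acute phase list, 2 of 8 tested genes, Hp and Cp, were higher, neither of them without the mouse block, and against spots poor in 4T1 markers 3 were higher and 3 lower. Hp, haptoglobin, measured 700 and 660 CPM against 399 and 114 CPM (1.54 ± 0.35, adjusted p = 0.000197).

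Enzymes that handle foreign compounds were also abundant, summing to 14636 and 13809 CPM in airway spots against 4582 and 2555 CPM, in a list that shares Cbr2, Aldh1a1, Pon1 and Gsta3 with the secretory list. Of 44 tested members of this list, 31 were higher and 0 lower, with a median of 1.70 and 10 called without the mouse block. Sult1d1, a sulfotransferase, measured 211 and 355 CPM against 7.32 and 2.37 CPM (5.94 ± 0.36, adjusted p = 4.12e-56). Pon1, a paraoxonase, measured 250 and 260 CPM against 11.2 and 2.75 CPM. Both genes were low in the lower 80%. Others were also present in the lower 80%: Cyp4b1 measured 774 and 971 CPM against 341 and 161 CPM (1.76 ± 0.37, adjusted p = 2.39e-05), and Fmo1 measured 141 and 80.01 CPM against 141 and 33.1 CPM (adjusted p = 0.324). Adh7, an alcohol dehydrogenase of upper airway and gut epithelium, was rare at 16.2 and 33.0 CPM. In the antioxidant list 6 of 21 tested genes were higher and 0 lower, 2 of them without the mouse block, and against spots poor in 4T1 markers 9 were higher and 4 lower. Prdx6, a peroxiredoxin that reduces phospholipid peroxides, measured 1341 and 1402 CPM against 331 and 329 CPM (1.93 ± 0.39, adjusted p = 1.65e-05). Gpx2 measured 29.3 and 33.0 CPM against 1.33 and 0.42 CPM. Neither Nfe2l2 nor Hmox1 was called (log2 fold changes 0.12 and -0.66, adjusted p = 0.873 and 0.162).

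Genes of the motile cilium were higher in airway spots almost throughout. Of the genes for dynein arms and their docking, 21 of 23 tested were higher, with a median of 5.06, and 16 of them also without the mouse block. Dnah5, the outer arm heavy chain often mutated in primary ciliary dyskinesia, measured 231 and 197 CPM in airway spots against 8.65 and 1.87 CPM. Dnah12, an inner arm heavy chain, measured 270 and 227 CPM against 9.87 and 1.99 CPM. Dnali1, a light chain, measured 149.5 and 154 CPM against 5.21 and 1.61 CPM. Dnaic2, an intermediate chain, measured 66.6 and 78.0 CPM against 2.33 and 0.918 CPM. In contrast to Bpifa1 and Reg3g, the levels of these 4 genes in airway spots differed by less than 1.5-fold between the mice. Dnah8 and Dnal4 were not called.

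The axonemal list, with radial spokes, central apparatus, tektins and the dynein regulatory complex, had 68 of 71 tested genes higher and 0 lower, with a median of 4.99, and 51 of them without the mouse block. Cfap65 measured 296 and 232 CPM against 8.98 and 2.18 CPM (5.74 ± 0.35, adjusted p = 8.18e-56). Rsph4a, a radial spoke head protein, measured 63.4 and 81.0 CPM against 2.22 and 0.726 CPM. Spag16, of the central apparatus, measured 87.8 and 63.0 CPM against 3.33 and 0.42 CPM. The 3 members not called were Ropn1l and the tubulins Tubb4b and Tuba1a, which many other cells use, and against spots poor in 4T1 markers all 71 were called. As background, the same genes in the primary tumour sections stood at 0.517 and 6.89 CPM for Cfap65 and at 0.887 and 9.09 CPM for Rsph4a. The higher of each pair came from Mouse_628, whose tumour section gave several CPM for most airway genes.

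Since the cilium genes moved together, their promoters were read for the motifs of factors known to drive them. RFX factors bind the X-box, written GTTNCC followed by any pair of bases and by GGNAAC, or the short RFX site GTTGCCA, which overlaps the left arm of the X-box. FOXJ1 and other forkhead factors bind GTAAACA. RefSeq promoters on GRCm38.p6, from 250 bases before to 50 after the gene start, were matched by symbol for 77 of the 94 tested cilium genes, which gave 85 promoters, and both strands were searched. The short RFX site occurred in 18 of these 85 promoters (21.2%), those of 17 genes, against 1439 of all 32851 promoters (4.38%). The full X-box occurred in 2 of 85 (2.35%) against 148 of all (0.451%), and the forkhead site in 4 of 85 (4.71%) against 1199 (3.65%). These are matches of letters, counted without a test.

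The promoters of Ccdc151, Cfap44 and Sntn are shown because they hold the full motif, a pair of short RFX sites, and a short RFX site with a forkhead site. In capitals are the motif letters. The short sites of Cfap44 lie on the other strand, where they read GTTGCCA, and appear in the printed sequence as TGGCAAC. The promoter of Ccdc151, a dynein docking factor, lies at chr9:22002585-22002884 on the minus strand, with its X-box starting 34 bases before the gene start. That of Cfap44 lies at chr16:44394549-44394848 on the plus strand, with short sites 130 and 20 bases before the start. That of Sntn, a protein of the ciliary tip, lies at chr14:13670626-13670925 on the plus strand, with the short RFX site 66 and the forkhead site 236 bases before the start.
Ccdc151: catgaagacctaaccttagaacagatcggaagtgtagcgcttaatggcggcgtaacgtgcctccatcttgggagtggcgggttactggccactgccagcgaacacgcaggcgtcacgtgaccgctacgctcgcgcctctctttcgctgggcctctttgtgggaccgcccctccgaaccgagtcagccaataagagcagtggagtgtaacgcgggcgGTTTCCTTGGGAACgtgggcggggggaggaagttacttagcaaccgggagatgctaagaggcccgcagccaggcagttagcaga
Cfap44: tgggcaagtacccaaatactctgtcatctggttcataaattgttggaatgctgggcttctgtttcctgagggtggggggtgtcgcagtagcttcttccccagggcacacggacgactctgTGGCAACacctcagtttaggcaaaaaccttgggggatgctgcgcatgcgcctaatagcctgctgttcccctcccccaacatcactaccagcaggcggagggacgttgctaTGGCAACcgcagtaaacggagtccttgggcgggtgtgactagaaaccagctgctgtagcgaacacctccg
Sntn: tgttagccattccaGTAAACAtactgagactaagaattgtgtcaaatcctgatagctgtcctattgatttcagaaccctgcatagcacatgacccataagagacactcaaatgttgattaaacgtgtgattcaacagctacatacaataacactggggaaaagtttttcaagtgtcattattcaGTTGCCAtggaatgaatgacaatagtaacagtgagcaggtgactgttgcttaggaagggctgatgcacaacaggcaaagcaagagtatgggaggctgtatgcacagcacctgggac

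All 3 genes had a higher level in airway spots of both mice. Ccdc151 measured 17.9 and 21.0 CPM in airway spots against 0.887 and 0.344 CPM. Cfap44 measured 184 and 137 CPM against 6.32 and 1.22 CPM. Sntn measured 174 and 187 CPM against 7.65 and 1.30 CPM. The gene with the full X-box was the lowest of the 3 in level.

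The assembly list had a lower median than the axonemal list. Of the assembly list 29 of 39 tested genes were higher and 0 lower, with a median of 1.46, and 9 of them without the mouse block. Those that serve motile cilia had the largest differences: Dnaaf1, a factor that preassembles dynein arms, measured 58.5 and 50.0 CPM against 2.33 and 0.688 CPM. Zmynd10, also a preassembly factor, measured 65.0 and 56.0 CPM against 2.33 and 1.19 CPM. Ccdc78 and Deup1 take part in the amplification of centrioles. Ccdc78 measured 123.5 and 169 CPM against 6.32 and 1.99 CPM, and Deup1 measured 17.9 and 40.0 CPM against 1.33 and 0.535 CPM. The 10 members not called were Dnaaf2, Ift52, Ift80, Bbs4, Bbs7, Bbs9, Arl13b, Kif3a, Kif3b and Cep41, while the other intraflagellar transport genes of the list were called. Of these 10, Kif3a, a kinesin, had a log2 fold change of 0.43 (adjusted p = 0.671) and Arl13b, a small GTPase of cilia, of 0.14 (adjusted p = 0.904). Among regulators of ciliogenesis 9 of 13 tested were higher, 2 of them without the mouse block. Trp73, which acts upstream of Foxj1, measured 56.9 and 51.0 CPM against 2.11 and 0.535 CPM. Foxn4 and Cdc20b, expressed in cells that are forming cilia, were low, at 3.25 and 14.0 CPM and at 8.13 and 25 CPM. Rfx3 was called and Rfx2 was not (adjusted p = 0.131), while Gmnc, with 0 and 16 UMIs, and Mcidas, with 1 and 6, were too low to test.

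Transcription factors, junction proteins and keratins of epithelia were higher in many cases. Of the transcription factor list, 14 of 17 tested were higher and 0 lower, with a median of 2.01, and 4 of them without the mouse block. Sox2, which marks the conducting airway, measured 30.9 and 52.0 CPM against 2.66 and 0.382 CPM. Tbx1 measured 92.6 and 87.0 CPM against 5.99 and 3.29 CPM (4.23 ± 0.38). Foxa1, a forkhead factor of endoderm, measured 73.1 and 88.0 CPM against 11.4 and 6 CPM (3.18 ± 0.37, adjusted p = 3.2e-16). Ehf, an ETS factor of epithelia, measured 61.8 and 108 CPM against 12.4 and 4.86 CPM. Junction and keratin genes were higher in 15 of 23 tested, 5 without the mouse block, from 0.94 (St14) to 2.75 (Cldn7). Epcam, present in most epithelia, measured 206 and 238 CPM against 40.7 and 27.3 CPM (2.62 ± 0.30, adjusted p = 2.17e-16). Krt8 and Krt7 were not called.

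The Notch pathway, which sets the balance of secretory and ciliated fates, had 2 of 13 tested genes higher and 0 lower, near the share over all genes, and 2 higher and 4 lower against spots poor in 4T1 markers. The ligand Jag1 measured 112 and 101 CPM against 28.6 and 26.4 CPM (1.83 ± 0.32, adjusted p = 1.95e-07), and the target Hes1 measured 162 in both mice against 66.8 and 55.3 CPM (1.29 ± 0.29, adjusted p = 0.000133). No receptor was called: Notch1 to Notch4 had log2 fold changes of -0.34, -0.24, 0.44 and -0.50.

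Transporters and channels of the airway surface were higher in 12 of 19 tested genes, 5 without the mouse block, with a median of 1.41. Aqp4, a water channel, measured 35.8 and 42.0 CPM against 1.11 and 0.115 CPM. Slc16a11 measured 120 and 134 CPM against 9.20 and 2.14 CPM, and Slc23a1, a vitamin C transporter, 66.6 and 49.0 CPM against 4.10 and 1.11 CPM. Kcne3, a potassium channel subunit, was low in Mouse_627, at 6.50 CPM, and measured 27.0 CPM in Mouse_628. Cftr, the chloride channel, was not called (0.44, adjusted p = 0.786).

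Rare airway cell types left small but localised counts. Krt5, the keratin of basal cells, had 2 UMIs in airway spots of Mouse_627 and 21 in Mouse_628, against 0 and 1 in the lower 80%, which had many more UMIs in all. Krt15 measured 9.75 and 50.0 CPM against 0.222 and 0.382 CPM. Of 4 tested basal genes 2 were higher and 0 lower, beside 10.9% higher over all genes, and Dapl1 and Sfn were not called. Against spots poor in 4T1 markers 1 of 2 was higher. The other defining basal gene, Trp63, had 0 and 12 UMIs and was too low to test, as were Krt14 and Ngfr, and the primary tumour sections held Krt5 at 14.4 and 1.19 CPM. Pax9, a transcription factor of the foregut and upper airway, had 3 and 21 UMIs against 0 and 1. Like Sox2 and some cilium genes above, genes at such levels in the lower 80% entered the fit through the airway spots, where they are high. They are given as counts or CPM without a fold or a p.

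Of the goblet cell list 10 of 12 tested genes were higher and 0 lower, 8 without the mouse block. Muc5b (chr7:141839070-141873084, plus strand, GRCm38), the main gel-forming mucin of mouse airways, measured 214 and 276 CPM against 4.77 and 1.26 CPM. Agr2, needed for mucin folding, measured 21.1 and 50.0 CPM against 1.11 and 0.382 CPM. Clca1 had 2 UMIs in Mouse_627 and 18 in Mouse_628, and Muc5ac, with 1 and 20 UMIs, was too low to test. Resp18 and Calca, which neuroendocrine cells express, measured 17.9 and 19.0 CPM and 9.75 and 7 CPM in airway spots. In the neuroendocrine list 4 of 7 tested genes were higher, 2 without the mouse block, with Chga and Chgb too low to test. Of tuft cell and ionocyte genes 1 of 5 was higher, Atp6v1c2, and 0 without the mouse block. Ccna1, a cyclin of multiciliated and germ cells, and Slc5a9, a sugar transporter, were in no list and had 11 and 40 UMIs against 3 and 5, and 9 and 8 UMIs against 2 and 1.

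**Figure D3:**
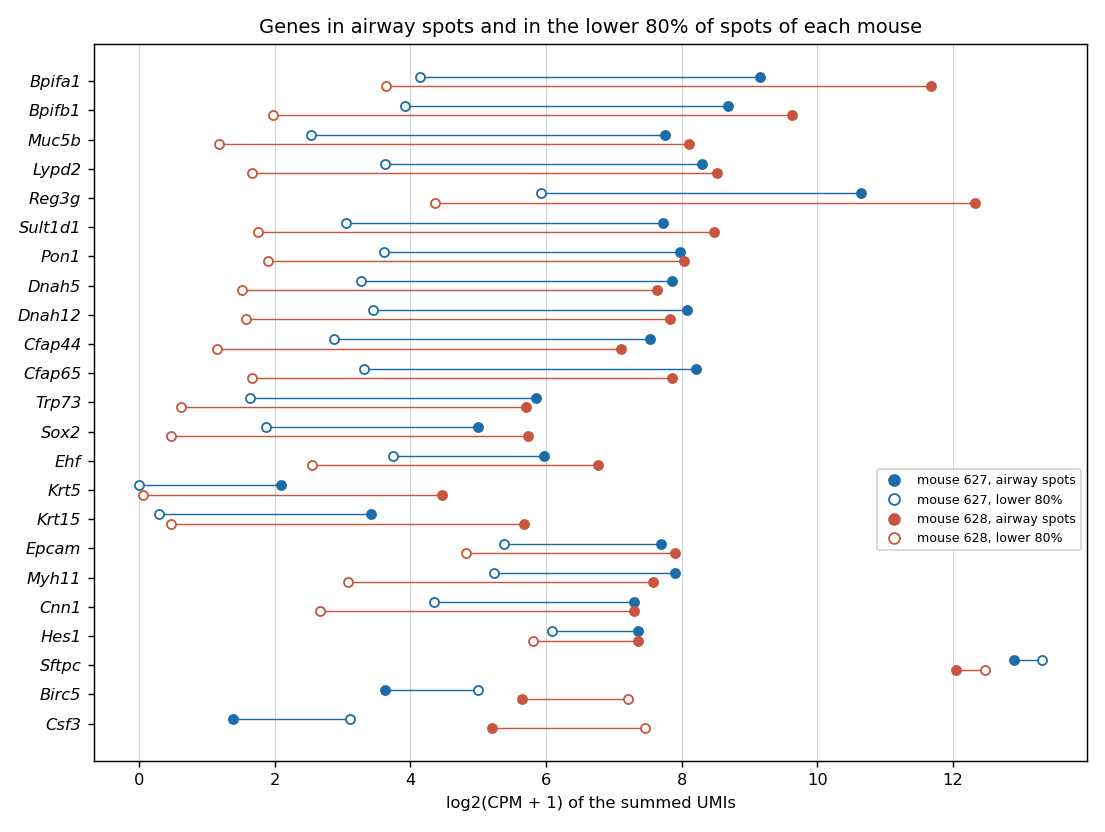
Level of 23 genes as log2(CPM + 1) in the summed airway spots (filled points) and the summed lower 80% (open points) of Mouse_627 (blue) and Mouse_628 (red), joined by a line. Secretory and cilium genes lie far to the right in airway spots of both mice, Sftpc lies close together in both classes, and Birc5 and Csf3 lie to the left.

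Smooth muscle genes were also higher in airway spots. Whether they came from the walls of airways or of vessels was not tested. Of 16 smooth muscle genes, all tested, 13 were higher and 0 lower, with a median of 2.45, and 3 without the mouse block. Myh11, the smooth muscle myosin, measured 239 and 190 CPM against 36.8 and 7.49 CPM (3.55 ± 0.32, adjusted p = 2.01e-26). Cnn1, calponin, measured 156 CPM in both mice against 19.4 and 5.35 CPM (3.82 ± 0.34, adjusted p = 1.59e-27). The list summed to 3041 and 3022 CPM in airway spots and to 983 and 885 CPM in the lower 80%. In the adventitial fibroblast list 7 of 16 were higher, none of them without the mouse block, and against spots poor in 4T1 markers 13 were higher and 1 lower. Gli1, a target of Hedgehog signalling, measured 17.9 and 10.0 CPM against 2.88 and 2.98 CPM (2.04 ± 0.62, adjusted p = 0.00982, lost with DESeq2, with thinned spots and with the top 2% of spots), and the collagens Col1a1 and Col3a1 were not called. Of 6 tested nerve genes 3 were higher, 0 without the mouse block (3 higher and 2 lower against spots poor in 4T1 markers, and 0 higher and 2 lower of 3 against alveolar-rich spots), among them Cdh19, expressed in Schwann cells, which measured 4.88 and 6 CPM against 0.554 and 0.191 CPM. Of 4 tested fat genes 1 was higher, Cfd (2.33 ± 0.39), and of 11 heart muscle genes 1, Ryr2 (2.07 ± 0.45), a share below that over all genes (2 higher and 3 lower against spots poor in 4T1 markers), and 0 of 3 tested cartilage genes were called.

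Gas-exchange tissue was still present in the airway spots. The 13 analysed genes of alveolar type 2 cells summed to 10829 CPM in airway spots of Mouse_627 and to 6855 CPM in Mouse_628, against 13142 and 7632 CPM in the lower 80%. Sftpc, their surfactant protein, measured 7660 and 4210 CPM against 10200 and 5673 CPM (-0.55 ± 0.68, adjusted p = 0.701). Of 13 tested genes of this list 0 were higher and 1 lower, of 14 type 1 genes 1 higher and 0 lower, and of 16 capillary genes 0 higher and 1 lower. Against spots poor in 4T1 markers these counts became 2 higher and 5 lower, 1 and 10, and 0 and 13. The capillary gene called lower against the lower 80% was Apln, at 1.62 and 16 CPM against 5.65 and 54.1 CPM. It stood at 66.3 and 44.2 CPM in the primary tumours and kept its call in 11 of 17 alternatives, losing it also with DESeq2 and with thinned spots.

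Immune genes showed no common difference in the main comparison. The neutrophil list summed to 54389 and 34815 CPM in airway spots, against 91518 and 32647 CPM in the lower 80%, and 0 of 14 genes were called, nor were any without the mouse block. S100a8, an alarmin that neutrophils store, measured 18580 and 12740 CPM against 31870 and 12270 CPM (-0.49 ± 0.93). Against spots poor in 4T1 markers 13 of 14 neutrophil genes were lower in airway spots. Of 14 lymphoid genes 1 was higher, Mzb1 of plasma cells, which lost its call in 11 of 17 alternatives, and against spots poor in 4T1 markers 1 of 13 was higher and 3 lower. Of 15 interferon-induced genes 0 were called, and of 10 alveolar macrophage genes 1 was higher, Fabp4, a share close to that over all genes (1 higher and 2 lower of 9 against spots poor in 4T1 markers).

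Genes of tumour cells and of dividing cells were lower in airway spots. All 11 tested proliferation genes were lower, with a median of -1.39, and 9 of 12 genes of the 4T1 list, with a median of -1.63. Birc5, survivin, measured 11.4 and 49.0 CPM against 30.9 and 147 CPM (-1.65 ± 0.37, adjusted p = 0.0001). Csf3, the granulocyte growth factor that 4T1 cells secrete, measured 1.62 and 36.0 CPM against 7.65 and 175 CPM. Plau, urokinase, measured 13 and 76.0 CPM against 36.4 and 335 CPM (-2.06 ± 0.35). In the primary tumours Csf3 stood at 750 and 837 CPM and Plau at 304 and 243 CPM. Neither list had a call without the mouse block, and against spots poor in 4T1 markers 5 of 11 proliferation genes and 1 of 11 tested 4T1 genes were lower, the count of 4T1 genes being set by the choice of that reference. The part of tumour foci in the other genes that were lower was not tested.

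The 5 largest falls were from low counts. Stac2 had 0 UMIs in airway spots of both mice and was at least 2.07-fold lower, taking 3 UMIs over both sections as the floor, and it kept its call in 2 of 13 alternatives. Sfmbt2, Cda, Fam89a and Il24 each had 0 UMIs in airway spots of Mouse_627 and 1 to 3 in Mouse_628. Sfmbt2 kept its call in 12 of 16 alternatives, Cda in 9 of 14 and Fam89a in 6 of 13, and all 5 falls were lost with DESeq2. Of these Il24, an interleukin of the IL-10 family, measured 0.776 and 23.4 CPM in the lower 80% and 4.51 and 12.6 CPM in the primary tumours, and kept its call in 10 of 12 alternatives.

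**Figure D4:**
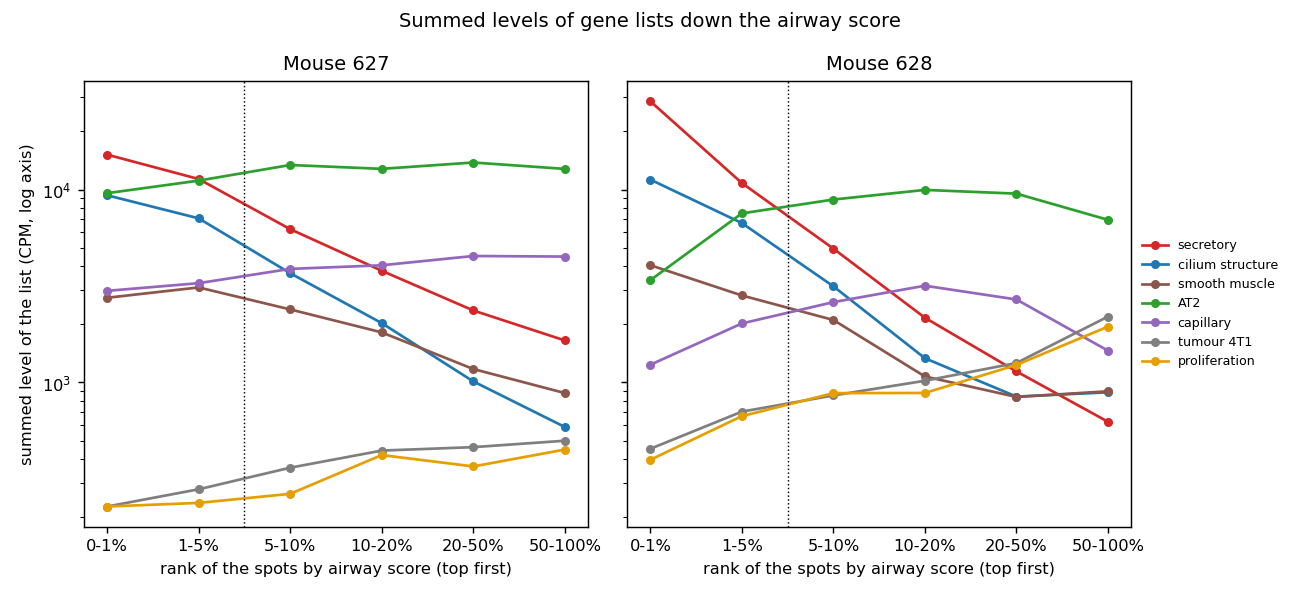
Summed level of 7 gene lists (CPM, log axis) in spots ranked by the airway score, from the top 1% to the lowest 50%, for each mouse, with a dotted line at the 5% limit of the airway spots. The secretory list falls at each rank in both mice, the cilium structure list falls at each rank in Mouse_627 and, in Mouse_628, down to 844.5 CPM at 20 to 50%, with 888.8 CPM in the lowest 50%, the 4T1 and proliferation lists are higher in the lowest ranks than in the highest, and the type 2 list (AT2) is lowest in the top 1%.

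The secretory list was lower at each step down the score, while the alveolar type 2 list had no steady course. The secretory list summed to 15162 CPM in the top 1% of spots of Mouse_627, to 11334 CPM in the next 4%, to 6231 CPM from 5 to 10% and to 1651 CPM in the lowest 50%. In Mouse_628 the same ranks gave 28653, 10805, 4938 and 625 CPM. Smooth muscle genes summed to 2390 and 2107 CPM from 5 to 10%, still above the 881 and 900 CPM of the lowest 50%. The alveolar type 2 list was at 9572 and 3389 CPM in the top 1%, at 12793 and 9953 CPM from 10 to 20% and at 12789 and 6963 CPM in the lowest 50%.

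Airway spots were also set against the alveolar-rich spots of the same sections, the top 5% for 7 analysed genes of alveolar epithelium (85 and 138 spots, after 1 spot in both classes was dropped in Mouse_628). Of 10178 genes 1376 (13.5%) were higher in airway spots and 945 (9.28%) lower. Here 70 of 70 tested axonemal genes, 19 of 21 dynein genes, 14 of 16 secretory genes and 31 of 42 enzymes of foreign compounds were higher, and 2 of these enzymes were lower. With UMIs of the score genes left out of the totals, Dnah5 measured 236 and 202 CPM in airway spots against 12.0 and 3.75 CPM. Dnah5 and other members low in alveolar-rich spots entered this fit through the airway spots, where they are high. The counts of these lists are in part set by that filter. The largest fitted rises were those of Tff2, Agr2, Gfra1, Gpx2 and Tbata, all at 0 UMIs in alveolar-rich spots of both mice. With 3 UMIs over both sections as the floor, they were from at least 18.6-fold (Tbata) to at least 26.3-fold (Tff2) higher. With DESeq2 the calls of Tff2, Agr2, Gfra1 and Tbata were lost. Gfra1, a receptor for GDNF, had 20 and 39 UMIs in airway spots.

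Several groups read differently against alveolar tissue than against the lower 80%. Neutrophil genes were lower in airway spots in 13 of 14 tested and capillary genes in 11 of 16. S100a9 measured 23820 and 12760 CPM against 33940 and 22220 CPM (-0.71 ± 0.19, adjusted p = 0.00127). Proliferation genes were lower in 1 of 8 tested, near the 9.28% over all genes, and 4T1 genes in 2 of 7. Heart muscle genes were higher in 5 of 7. Among the largest falls were Atp6v0d2 and Gpnmb, both expressed in macrophages. Atp6v0d2 had 0 and 5 UMIs against 8 and 45. Gpnmb had 6 and 16 UMIs against 10 and 167, a difference that came mainly from Mouse_628. Abcb1a, a drug efflux pump of endothelium, had 2 and 1 UMIs against 11 and 22. Cdh16 and Ddah1 had 2 and 3 UMIs and 2 and 7 UMIs against 9 and 26 and 14 and 33. Without the mouse block 618 genes were higher and 18 lower, and the falls of Atp6v0d2, Gpnmb, Cdh16 and Ddah1 lost their call, as did those of Atp6v0d2, Gpnmb and Ddah1 with DESeq2.

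The airway spots were not uniform among themselves. The 8 airway spots of Mouse_627 with the most Bpifa1 UMIs held 63.1% of its airway UMIs and the 14 of Mouse_628 held 64.0%. The same numbers of deepest spots held 15.6% and 19.9% of all UMIs. Spots picked on a gene's own UMIs held more than the deepest spots for other genes too. These shares were 31.0% and 32.5% for Dnah5, and 28.9% and 31.4% for Tubb4b. Bpifa1 had UMIs in 35.3% and 46.0% of airway spots, and in 6.77% and 8.14% of the lower 80%. Reg3g and Muc5b were spread in the same uneven way, with 52.0% and 67.4%, and 58.3% and 55.4%, in the same numbers of spots.

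This unevenness followed the patches. After these values had been seen, the patches of 4 or more spots were divided at Bpifa1 levels over 1000 CPM and under 200 CPM, with none between, so what follows is a description without a test. The Bpifa1-rich patches were 3 in Mouse_627 (25 spots) and 4 in Mouse_628 (51 spots), and the Bpifa1-poor ones 4 (48 spots) and 8 (67 spots). Reg3g measured from 3672 to 6099 CPM in the rich patches of Mouse_627 and from 0 to 54.8 CPM in the poor ones, and from 4090 to 24238 against 0 to 86.0 CPM in Mouse_628. Muc5b measured from 475 to 1103 CPM against 0 to 18.3 CPM, and from 283 to 860 against 0 to 136 CPM. Both genes rose over the airway spots with Bpifa1, which set the groups. The Spearman rank correlations with Bpifa1 were 0.84 (Reg3g) and 0.83 (Muc5b) in Mouse_627, and 0.88 and 0.73 in Mouse_628. The share of all genes whose patch ranges also stand apart is not given here. Tff2 was at 0 UMIs in the poor patches of both mice and at 75.6 and 114 CPM in the rich ones.

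The 2 kinds of patch also differed in the genes of the tissue around the epithelium. Cilium genes, which the choice of spots favours, were present in both, with the axonemal list at 10560 and 6477 CPM in Mouse_627 and at 9168 and 6787 CPM in Mouse_628. Smooth muscle genes summed to 5582 CPM in rich and 2191 CPM in poor patches of Mouse_627, and to 4768 and 1888 CPM in Mouse_628. The rich patches also held more of the heart muscle list, 1166 against 174 CPM and 1243 against 206 CPM, and less of the type 1 list, 2041 against 3730 CPM and 1548 against 2118 CPM. For both lists single patches did not overlap in Mouse_627 but did in Mouse_628. There the heart muscle list ran from 686 to 1859 CPM in rich and from 0 to 852 CPM in poor patches. In Mouse_627 patches also stood apart for other lists, among them secretory, goblet cell, smooth muscle, type 2, capillary and neutrophil genes. The acute phase and antioxidant lists overlapped, so standing apart was not particular to the heart muscle and type 1 lists. Krt5 had no UMI in the poor patches of either mouse.

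**Figure D5:**
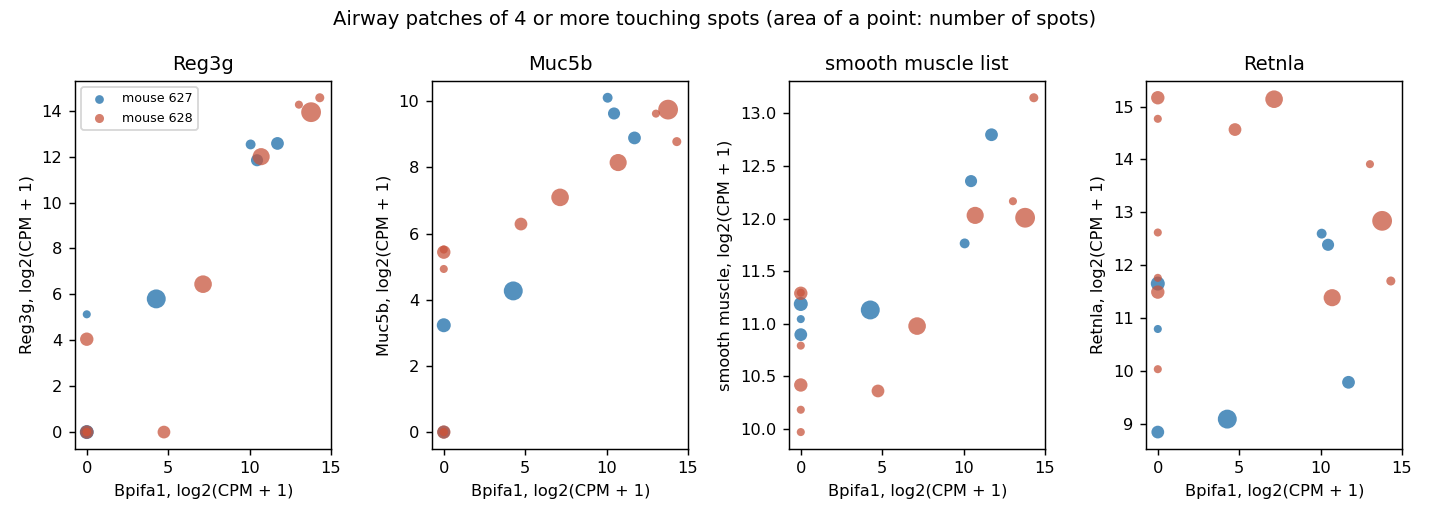
Levels of Reg3g, Muc5b, the smooth muscle list and Retnla against Bpifa1 in airway patches of 4 or more touching spots, all as log2(CPM + 1), for Mouse_627 (blue) and Mouse_628 (red), with the area of a point giving the number of spots. Reg3g, Muc5b and smooth muscle genes are high in the patches high in Bpifa1, while the highest Retnla levels lie in patches of Mouse_628 that are low in Bpifa1.

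Retnla (chr16:48842551-48844461, plus strand, GRCm38), which encodes the secreted protein RELMα known from type 2 immune responses, went its own way. It was no member of the named genes and was singled out after its values were seen. In airway spots it measured 2366 CPM in Mouse_627 (95% Poisson interval 2246 to 2491) and 20200 CPM in Mouse_628 (19920 to 20480), against 897 and 540 CPM in the lower 80% (3.19 ± 0.80, adjusted p = 0.000914). The log2 fold change was 1.23 in one mouse and 5.14 in the other. In 1 airway spot of Mouse_628 it made up 11.1% of all UMIs. Of the 100 spots of that section with the highest Retnla level, 55 were airway spots, 45 lay in the next 15% and 0 in the lower 80%. In Mouse_627 these numbers were 17, 41 and 42. In Mouse_628 the Bpifa1-poor patches held Retnla at 26230 CPM and the rich ones 5767 CPM, and in Mouse_627 the order was the other way, with 1430 and 3900 CPM. Single patches overlapped in both mice, with poor patches from 1044 to 36766 CPM and rich ones from 2668 to 15386 CPM in Mouse_628, and poor ones from 457 to 3211 CPM and rich ones from 879 to 6183 CPM in Mouse_627. The primary tumours held Retnla at 0.443 and 5.97 CPM.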

How the data were processed

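Visium sections of the primary tumour and lung of 2 mice were analysed, each cut from fixed, paraffin-embedded tissue and read with the 10x mouse probe set. The authors deposited raw UMI counts per spot and gene, made with Space Ranger 2.0.0 per the file headers, on mm10, with 19465 genes, and 0 value columns were left without a sample. Scgb1a1 of the score and Sftpb of the alveolar list were not analysed here. A probe reports its own target, so counts do not depend on gene length in the way reads do.

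Spots with over 200 genes were ranked by the score, and counts were summed per section and class. The sums, without the score genes, were tested with edgeR 4.0.16 in R 4.3.3 (TMM, filterByExpr, glmQLFit and glmQLFTest, mouse as a block, Benjamini-Hochberg adjustment, threshold 0.05). Errors of log2 fold changes are the fold change divided by the square root of F. Both classes of a section come from 1 animal, which is where the pairing comes from, and same-animal sums deviated together (correlation 0.487 over 12988 genes). With the mouse as a block, the p-values rest on how the difference between classes varied between 2 mice. That spread was largely borrowed from other genes of similar level. Intervals are exact Poisson at 95% and cover counting error only. Counts of 12988 genes were simulated for the first comparison with 1 spread for all genes and the same fold in both mice. The blocked fit recovered 82% of 2-fold rises, 100% of 4-fold rises, 51.0% of falls to 0.5 and 84% of falls to 0.25. It called 7 unchanged genes, and the fit without the block recovered 0% at each size. In the data some folds differed between the mice, as for Bpifa1 (log2 4.90 and 8.05), so these shares do not describe such genes.

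Named were the 10 largest rises and 5 largest falls past the threshold with 1 direction in both mice, up to 4 such members per list by size of change, or the 2 with the highest CPM where fewer than 2 qualified, and the 5 largest rises and falls against alveolar-rich spots. Some genes that this rule selects are not reported here. Other genes in the text were named after their values were seen. The members and the 32 gene lists were chosen with earlier results of these data known. Alternatives changed the test (DESeq2 1.42.0), the scaling, the filters, the score, the spots taken, the depth (thinned to 2000 UMIs) and the reference.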

Additional observations from a re-analysis of the deposited data

Results flagged for a closer look

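Some lists and genes had opposite directions in the 2 mice, and the differences below, as log2 ratio of airway spots to the lower 80% in Mouse_628 minus that in Mouse_627, were not tested. The acute phase list differed by 0.90 (-0.28 in Mouse_627 and 0.62 in Mouse_628), the lymphoid list by 0.76 (-0.62 and 0.14), and the neutrophil list by 0.84 (-0.75 and 0.09). The type 1 list differed by 0.50 (-0.39 and 0.11), the capillary list by 0.57 (-0.49 and 0.09) and the nerve list by 0.61 (-0.01 and 0.60). The alveolar macrophage list differed by -0.67 (0.15 and -0.52) and the cartilage list by -0.57 (0.09 and -0.48).

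Among single genes, none of them called, Stap1 differed by 1.82, Oasl2, an interferon-induced gene, by 1.38, and Lipe, the hormone-sensitive lipase, by 1.13. Sox9, a regulator of cartilage, differed by -3.30 (1.55 and -1.75) and C1qa, a complement gene of macrophages, by -1.47. Hopx of type 1 cells differed by 0.83, Tmem100 and Calcrl of endothelium by 1.05 and 0.79, and Myh6, the heart myosin, by 0.84. The ratio of Retnla in Bpifa1-rich to Bpifa1-poor patches was 1.45 in Mouse_627 and -2.19 in Mouse_628, a difference of -3.63 that was not tested.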

How the results depend on the processing

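In the comparison with the lower 80%, 1414 genes were higher and 389 lower. Without the mouse block, that is without the pairing of classes by animal, these became 424 and 0. With DESeq2 114 were lower. Other counts of lower genes were 247 with the top 10% of spots, 252 without reference spots next to airway spots, 192 with the secretory score genes alone, 193 with equal weight of the score genes, and 124 with thinned spots, where 856 were higher. With the reference poor in 4T1 markers 1352 were lower, and 1262 with the same limit on airway spots, both alternatives chosen after seeing the data. Against alveolar-rich spots the counts fell from 1376 and 945 to 618 and 18 without the mouse block, and to 369 and 78 with DESeq2. The causes were not tested. No named gene past the threshold changed direction under these alternatives, which were not run for named genes that were not called. With the reference poor in 4T1 markers the balance of some lists turned, the type 1 list from 1 higher and 0 lower to 1 and 10, the Notch list from 2 and 0 to 2 and 4, the lymphoid list from 1 and 0 to 1 and 3, the heart muscle list from 1 and 0 to 2 and 3, and the alveolar macrophage list from 1 and 0 to 1 and 2. Over called named genes and the alternatives with a test, 1324 values kept their call and 167 lost their call, 49 of these without the block. Leaving out either mouse gives the fold of the other with no test, and 61 of these values moved by more than the spread. Genes with a few UMIs, such as Krt5, Pax9 and Clca1, are limited by depth, and their fold depends on the count added to avoid zeros.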

Other observations

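The antibody genes Igkc and Ighm were uneven among the airway patches. They were chosen for this description after their values were seen and carry no test. Igkc, the kappa light chain, measured 4014 CPM in Bpifa1-rich and 276 CPM in Bpifa1-poor patches of Mouse_627, and 409 and 28.6 CPM in those of Mouse_628. The ranges of single patches overlapped in both mice, from 299 to 8497 CPM against 126 to 1497 CPM and from 27.4 to 1051 CPM against 0 to 77.3 CPM. Ighm, the heavy chain of IgM, measured 2835 and 105 CPM, and 336 and 32.4 CPM. The lymphoid list ran the other way, at 693 CPM in rich and 873 CPM in poor patches of Mouse_627, and 428 and 469 CPM in Mouse_628. Single patches of that list overlapped in both mice.

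Lactoferrin, Ltf, which was not called over all airway spots, measured 1556 CPM in rich and 1323 CPM in poor patches of Mouse_627, and 3937 and 572 CPM in Mouse_628. In Mouse_628 the lowest rich patch was at 1002 CPM and the highest poor patch at 928 CPM. Ltf was chosen after its values were seen. The share of all genes with patches standing apart in this way is not given here.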
